A study of Homo sapiens with 10 samples.

Results

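The genes described here are 34 zinc finger genes of the long arm of chromosome 19, ZNF529 and the ZNF and ZFP genes lying around it, out of 58381 gene rows in each deposited table. They were found by symbol. The set was chosen by the ZNF529 count and TPM values, which were higher in the InsE line than in the control in earlier results from these files, so its values and those of all members in InsE against control are given as a description, with no test. The other members entered by name and place. In the coordinates of GENCODE release 29 (hg38) the genes run from ZNF302 at position 34677639 to ZNF573 at position 37817300, a stretch of 3.14 Mb. A stretch of 1.22 Mb that holds none of them separates ZNF302, ZNF181, ZNF599, ZNF30 and ZNF792 from the other members.

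The RNA came from GIST-T1, an established human cell line from a metastatic gastrointestinal stromal tumour (GIST), with intact succinate dehydrogenase per the series' design text. Its 4 derivatives InsE, InsF, InsG and InsH carry a disrupted CTCF insulator, CTCF being the DNA-binding protein found at many chromosome loop boundaries, and the control has the genotype WT. Each of the 5 groups had 2 libraries of polyadenylated RNA, and all shared the same medium, with no further agent named. The labels give neither the edited site behind each letter, nor whether a line is 1 clone, nor whether the libraries sharing a group are separate cultures. Each p-value therefore reflects only how far these libraries scatter, and that scatter may be technical.

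Most genes of this family encode a KRAB domain followed by a row of zinc fingers. The fingers bind DNA, often within transposable elements, and the KRAB domain recruits the corepressor TRIM28, which brings the histone methyltransferase SETDB1 and heterochromatin proteins that silence the site. The family grew by tandem duplication, which left the genes side by side in clusters on chromosome 19, many at low levels. CTCF-bound insulators can keep a gene from the enhancers or the repressed chromatin of its neighbours.

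Libraries held 31.0 and 9.4 M (mega) expected counts in InsE, 28.8 and 14.8 M in InsF, 42.5 and 11.1 M in InsG, 22.9 and 12.0 M in InsH, and 30.8 and 20.1 M in the control. Replicate 1 was deeper than replicate 2 in every group. Counts of the 2 control libraries differed by less than those of the 2 libraries of any line, with a chi-square per degree of freedom of 6.59 to 7.69 within lines and 1.39 within the control. GIST markers were present, with KIT at 366 to 479 TPM (transcript share corrected for length) in the lines and 720 TPM in the control. The summed TPM of the 8 GIST markers was 2642 to 2831 in line libraries and 3505 to 3523 in control libraries. By mean TPM, ANO1, CD34, FOXF1 and PRKCQ were also lower in every line, and the rest were mixed. PDGFRA had 24.2 TPM in InsE, 33.1 to 37.1 TPM in the other lines and 29.1 TPM in the control. HAND1 was lower in InsE and InsF and higher in InsG and InsH. ETV1 was lower in InsE and InsF and level with the control in InsG and InsH. Of other cell types, the summed TPM of 6 fibroblast markers was 2084 to 2170 in InsE, 2839 to 2995 in the other lines and 2246 to 2266 in the control, with COL1A2 at or near 0. These markers did not move together. LUM had 749 to 844 TPM in the lines and 421 TPM in the control, and COL1A1 and PDGFRB were also higher in every line. THY1 was lower in every line, with 558 to 717 TPM in the lines and 812 TPM in the control. COL3A1 had 769 TPM in InsE, 1348 to 1458 TPM in the other lines and 1006 TPM in the control. The 5 epithelial markers summed to 194 to 255 TPM in line libraries and 268 to 278 TPM in control libraries, nearly all KRT18 and KRT8, with KRT19 at 0 and CDH1 at or near 0. Of blood genes, HBB was at 0 and PTPRC at or near 0. The 4 endothelial markers summed to 0.2 to 0.73 TPM in line libraries and 0.28 to 0.29 TPM in control libraries. The part of these differences in the zinc finger values was not tested.

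ZNF529 lies on the minus strand of chromosome 19, from 36534774 to 36605276. Its 5′ end overlaps that of ZNF382, which runs away from it on the plus strand, so that the 5′ ends form a divergent pair. RefSeq (GRCh38.p14) gives ZNF529 an outer and an inner start, 32.0 kb apart. The 3 promoter windows of this pair, each running from 250 bases before to 50 bases after a start, are shown because ZNF529 had the largest difference of the family in every line while ZNF382, which shares its outer promoter, stayed near 0. Capitals mark the 155 bases, chr19:36605208-36605362, that the ZNF529 outer window and the ZNF382 window share as reverse complements; the inner window has none of the motifs searched and no capitals.
ZNF529 outer, chr19:36605208-36605507, minus strand: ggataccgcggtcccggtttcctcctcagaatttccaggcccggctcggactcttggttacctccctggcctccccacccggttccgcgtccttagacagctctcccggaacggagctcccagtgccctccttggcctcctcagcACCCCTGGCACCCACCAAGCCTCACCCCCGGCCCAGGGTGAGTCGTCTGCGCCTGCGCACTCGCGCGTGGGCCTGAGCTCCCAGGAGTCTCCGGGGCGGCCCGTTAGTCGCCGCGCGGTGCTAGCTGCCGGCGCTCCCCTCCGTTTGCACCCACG
ZNF382, chr19:36605063-36605362, plus strand: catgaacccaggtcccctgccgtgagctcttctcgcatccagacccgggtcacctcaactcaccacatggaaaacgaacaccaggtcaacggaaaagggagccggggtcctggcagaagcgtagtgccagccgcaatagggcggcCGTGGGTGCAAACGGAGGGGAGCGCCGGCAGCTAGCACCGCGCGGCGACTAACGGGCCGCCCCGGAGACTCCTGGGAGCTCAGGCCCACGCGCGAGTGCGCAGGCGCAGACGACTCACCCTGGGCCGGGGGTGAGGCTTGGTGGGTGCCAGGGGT
ZNF529 inner, chr19:36573243-36573542, minus strand: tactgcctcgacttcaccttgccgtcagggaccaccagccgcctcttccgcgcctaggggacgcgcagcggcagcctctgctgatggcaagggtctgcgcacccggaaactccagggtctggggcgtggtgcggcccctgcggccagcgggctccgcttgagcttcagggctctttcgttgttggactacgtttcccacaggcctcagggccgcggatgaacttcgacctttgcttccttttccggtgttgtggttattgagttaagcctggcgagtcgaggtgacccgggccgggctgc
The windows hold 28, 27 and 25 CpG dinucleotides in that order, and the shared stretch alone holds 18. The shared stretch has a match to the NRF1 motif (GCGC, any base, TGCGC) and a match to the SP-type GC box GGGCGG.

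ZNF529, a KRAB zinc finger gene, was higher in all 8 line libraries than in both control libraries. Its counts were 115 and 20 in InsE, 68 and 31 in InsF, 90 and 21 in InsG, 45 and 27 in InsH, and 16 and 8 in the control. Scaled for library size, it had 3.68 and 2.11 CPM (counts scaled by library size) in InsE, 2.35 and 2.08 CPM in InsF, 2.1 and 1.88 CPM in InsG, 1.94 and 2.24 CPM in InsH, and 0.536 and 0.41 CPM in the control. The lowest line library was thus well above the highest control library, and 1 InsE library stood above all the others. In RNA from a whole culture, fewer cells with the transcript and less of it per cell cannot be told apart. All 4 lines are compared with the same 2 control libraries, so the comparisons are not independent of each other.

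The mean level of ZNF529 was 2.9 ± 1.11 CPM in InsE, 2.21 ± 0.185 CPM in InsF, 1.99 ± 0.158 CPM in InsG, 2.09 ± 0.209 CPM in InsH and 0.473 ± 0.089 CPM in the control (SD, n = 2 each). The edgeR log2 difference from the control was 2.64 ± 0.31 (SE) for InsE, 2.2 ± 0.31 for InsF, 2.05 ± 0.32 for InsG and 2.09 ± 0.32 for InsH, or 6.22-fold, 4.59-fold, 4.14-fold and 4.26-fold. As a plain ratio of summed counts per library total, InsE had 7.09 (95% counting interval 4.57 to 11.4), InsF 4.81 (3.06 to 7.87), InsG 4.39 (2.81 to 7.14) and InsH 4.37 (2.72 to 7.26). All 4 intervals rest on the same 24 control counts, so their overlap does not show whether the lines differ from each other.

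Within replicate 1 alone, the log2 difference of ZNF529 from the control was 2.57, 1.94, 1.79 and 1.68 in InsE, InsF, InsG and InsH. Within replicate 2 alone it was 2.12, 2.1, 1.95 and 2.19. InsE exceeded the mean of InsF, InsG and InsH by 0.52 on the log2 scale, a value that was 0.01 without InsE replicate 1. Per transcript length, ZNF529 stayed a low gene also where it was high, at 1.02 TPM in InsE, 0.725 in InsF, 0.79 in InsG, 0.745 in InsH and 0.22 in the control. On the log2(TPM + 1) scale, which understates changes of low genes, its differences were 0.72, 0.5, 0.56 and 0.52.

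**Figure D1:**
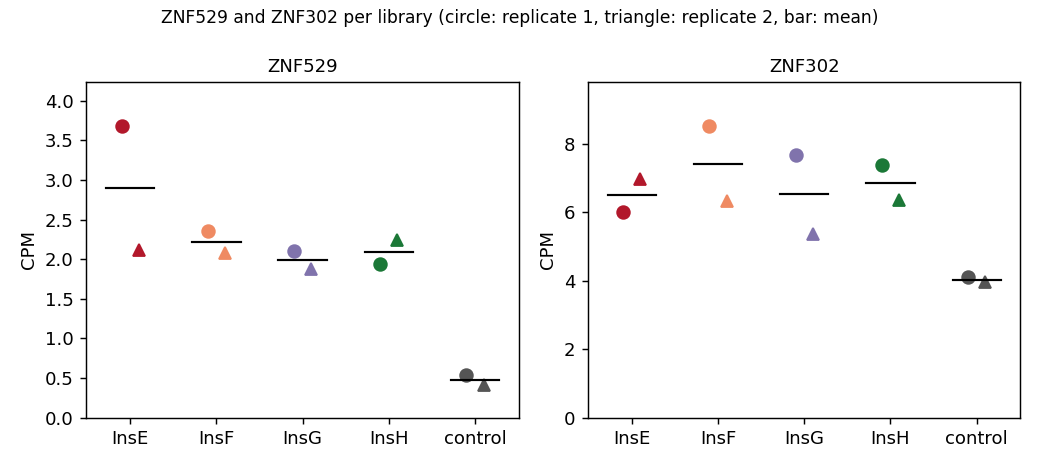
Level of ZNF529 (left) and ZNF302 (right) in CPM on the vertical axis for each group on the horizontal axis, with a circle for replicate 1, a triangle for replicate 2 and a bar for the mean. For ZNF529 the 8 line libraries sit between 1.88 and 3.68 CPM, and the control libraries are at 0.536 and 0.41 CPM.

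Transcripts on the opposite strand of ZNF529 were nearly silent. ZNF382, which encodes a KRAB repressor known as a target of promoter methylation in carcinomas, had 3 counts over all 10 libraries, 1 in InsE, 2 in InsF and 0 elsewhere. The antisense transcript ZNF529-AS1 had 1 count in each line and 0 in the control, and a further antisense transcript, AC092295.4, had 0 counts. The strand setting of the counting is not given in the sources used here, so reads of these overlapping genes cannot be told apart. The overlapping genes held 3, 4 and 0 counts beside 441 for ZNF529, and exchange of reads between the strands was not tested. A gene with 0 counts in the control pair could have had up to 0.059 CPM there, taking 3 counts as the limit that a count of 0 allows, and this limit covers counting error only.

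The closest tested neighbours had no difference of the size seen in ZNF529. ZNF260, whose 5′ end lies 76.6 kb from that of ZNF529 and whose rat homologue is a heart transcription factor, had log2 differences from the control of -0.39 for InsE, -0.4 for InsF, -0.29 for InsG and -0.44 for InsH. ZNF461, 61.6 kb away on the other side, had 0.04, 0.03, -0.18 and -0.14. ZNF566, 115.4 kb away, had -0.22, -0.13, -0.1 and -0.13, and ZNF567, 82.3 kb away, had -0.19, 0.04, 0.17 and 0.13. Of these, ZNF260 fell in InsF and InsH, as described below, and no other value in InsF, InsG or InsH passed the test.

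**Figure D2:**
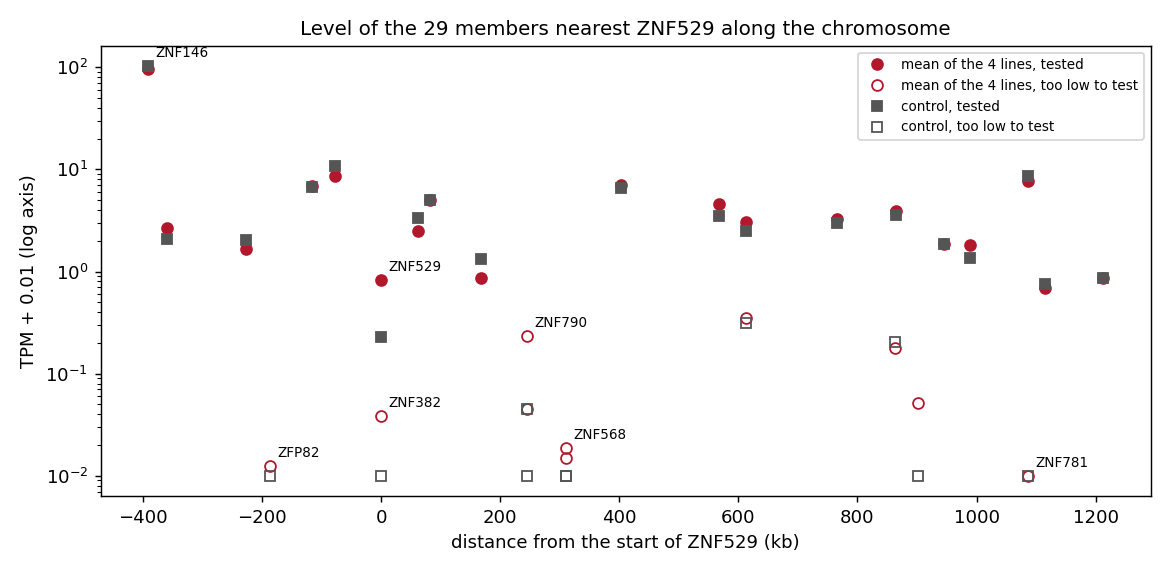
Mean level of the 29 members nearest ZNF529, as TPM + 0.01 on a log axis, against the distance of their 5′ ends from that of ZNF529 in kb. Circles are the mean of the 4 lines, squares the control, and open symbols genes too low to test; ZNF529 is the tested gene with the widest gap between circle and square, 0.22 TPM being its control level.

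Across the whole family, levels were low, and 1 gene stood apart. ZNF146, which encodes a short protein made almost wholly of zinc fingers without a KRAB domain, averaged 97.9 TPM and made up 52.0% to 60.9% of the summed TPM of all 34 genes in each library. The next highest was ZNF260 at 9.13 TPM. Over the 24 members that passed the expression filter the median was 2.92 TPM, with 18 between 1 and 10 TPM and 5 below 1 TPM. The summed TPM of the family was 160 to 192 in line libraries and 177 and 182 in control libraries. Without ZNF146 the sums were 63.6 to 87.1 in line libraries and 75.2 and 78.7 in control libraries, so the ranges of lines and control overlapped.

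Other well-detected members were ZFP30 at 7.85 TPM, ZNF420 at 6.98 TPM, ZNF566 at 6.89 TPM and ZNF567 at 5.02 TPM. A middle group held ZNF585A at 4.34 TPM, ZNF302 at 4.24, ZNF569 at 3.83, ZNF181 at 3.55, ZNF527 at 3.23, ZNF30 at 2.93, ZNF383 at 2.92, ZNF461 at 2.67 and ZNF565 at 2.53. Near the lower end were ZNF540 at 1.86 TPM, ZNF571 at 1.72, ZFP14 at 1.71, ZNF792 at 1.22, ZNF850 at 0.944, ZNF599 at 0.872, ZNF573 at 0.856, ZNF529 at 0.701 and ZNF607 at 0.695. ZNF420, also known as Apak, encodes a KRAB protein that restrains p53. ZNF529 was thus the second lowest of the tested members over the mean of all groups.

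**Figure D3:**
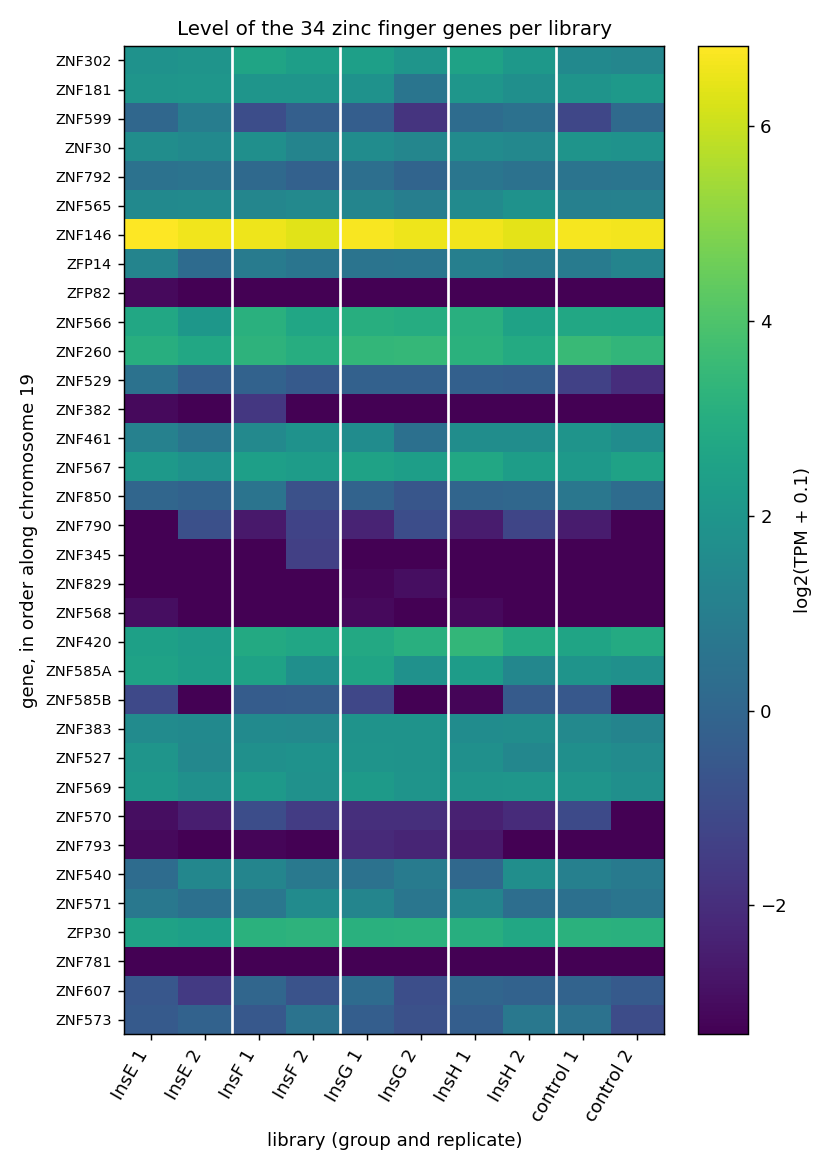
Level of the 34 genes as log2(TPM + 0.1), in colour, with genes in order along chromosome 19 down the page and libraries, lines before control, across it. ZNF146 is the bright row, at 83.4 to 113 TPM, and the dark rows are the members at or near 0 in all libraries.

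The remaining 10 members were too low to test. ZNF781 had 0 counts in all 10 libraries, which together held 223 M counts, and a count of 0 there allows up to 0.0134 CPM. ZFP82 and ZNF345 had 1 count each, ZNF829 had 2, and ZNF382 and ZNF568 had 3 each. ZNF568 is the human counterpart of a mouse gene that represses a placental form of Igf2. Taking a mean under 0.1 TPM in every group as silent, ZFP82, ZNF829, ZNF568 and ZNF781 were the silent members.

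Above these, ZNF793 had 14 counts over the 8 line libraries and 0 in the control pair, ZNF790 had 17 and 1, ZNF585B had 19 and 5, and ZNF570 had 49 and 5. The line libraries held 172 M counts and the control pair 50.9 M. These counts were spread thinly, with at most 15 in a library, and no fold is given for them. ZNF585A and ZNF585B are near-identical copies, so the split of counts between them, 696 and 24, is uncertain.

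Some of the members too low to test lay next to each other. ZNF790, ZNF345, ZNF829 and ZNF568 lie in a row over 181.3 kb, from 36817428 to 36998700, between ZNF850 and ZNF420, both of which were tested. ZNF570 and ZNF793 form a second run of 81.2 kb. ZFP82, ZNF382, ZNF585B and ZNF781 are single low genes among detected ones.

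By the outermost gene ends in GENCODE, the genes of 4 pairs of members run apart from 5′ ends within 1000 bases of each other. ZNF529 and ZNF382 stood at 0.701 and 0.023 TPM, and ZNF585B and ZNF383 at 0.335 and 2.92 TPM, so in both pairs 1 partner was detected far above the other. In ZNF790 and ZNF345 (18 and 1 counts) and in ZNF829 and ZNF568 (2 and 3 counts) both partners were too low to test. By RefSeq starts further members run apart from overlapping promoter windows. Both partners were tested in ZNF461 and ZNF567 (2.67 and 5.02 TPM) and in ZNF565 and ZNF146 (2.53 and 97.9 TPM). In ZNF569 and ZNF570 (3.83 and 0.173 TPM) ZNF570 was too low to test.

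Next to ZNF529, ZNF302 was the other member that was higher in all 8 line libraries than in both control libraries. ZNF302 passed the test in InsF, InsG and InsH, while no test is read for ZNF529, whose level chose the set. It lies at the far edge of the family, on the plus strand from 34677639 to 34686397, 1927.6 kb from ZNF529, and encodes a KRAB zinc finger protein. Its RefSeq promoter window (GRCh38.p14) is shown because, with ZNF529 set aside, it alone passed the test upward in InsF, InsG and InsH. Capitals mark the match to the ETS motif CCGGAAG, read on the other strand as CTTCCGG, and the GC box GGGCGG.
ZNF302, chr19:34677428-34677727, plus strand: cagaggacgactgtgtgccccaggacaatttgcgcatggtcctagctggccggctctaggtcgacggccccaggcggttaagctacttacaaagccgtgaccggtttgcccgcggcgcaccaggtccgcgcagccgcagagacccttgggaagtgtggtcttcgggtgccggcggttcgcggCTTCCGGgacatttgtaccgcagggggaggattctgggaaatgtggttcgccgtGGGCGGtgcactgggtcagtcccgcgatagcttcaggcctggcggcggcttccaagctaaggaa
It holds 28 CpG dinucleotides, as many as the ZNF529 outer window, and shares with it a GC box but not the NRF1 match.

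ZNF302 had 6.01 and 6.98 CPM in InsE, 8.52 and 6.32 in InsF, 7.68 and 5.37 in InsG, 7.37 and 6.37 in InsH, and 4.12 and 3.95 in the control. No line library reached down to the control libraries. It rose by 0.89 ± 0.2 (log2 ± SE; edgeR adjusted p = 0.011) in InsF, by 0.74 ± 0.2 (adjusted p = 0.0288) in InsG and by 0.78 ± 0.2 (adjusted p = 0.0264) in InsH, and differed by 0.66 ± 0.21 in InsE. The edgeR calls were lost without either control library (adjusted p = 0.0764 to 0.148 over the 3 lines) and without replicate 1 of the line concerned (adjusted p = 0.105 for InsF, 0.345 for InsG and 0.158 for InsH). DESeq2 gave adjusted p-values of 0.0914 in InsG and 0.0695 in InsH, and limma on log2(TPM + 1) gave 0.0707 in InsG. No annotated gene overlaps ZNF302 on either strand.

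ZNF30, 1678.4 kb from ZNF529 and in the same outlying group as ZNF302, was lower in every line library than in both control libraries. It had 4.77 and 4.55 CPM in InsE, 4.42 and 3.63 in InsF, 4.32 and 3.76 in InsG, 4.22 and 3.97 in InsH, and 6.03 and 5.64 in the control. It fell by 0.52 ± 0.15 in InsF (edgeR adjusted p = 0.0314), by 0.51 ± 0.15 in InsG (adjusted p = 0.0366) and by 0.51 ± 0.15 in InsH (adjusted p = 0.0436), with -0.32 ± 0.15 in InsE. DESeq2 did not call it (adjusted p = 0.278, 0.292 and 0.326), nor did limma on log2(TPM + 1) (0.28, 0.23 and 0.248) or edgeR with no expression filter (0.0622, 0.085 and 0.0961). The edgeR call in InsF was lost without either control library or InsF replicate 2 (adjusted p = 0.0992 to 0.177), and that in InsG without either control or either InsG library (0.0999 to 0.199). The call in InsH was lost without either control, InsE, InsG or InsH library (0.0504 to 0.218). ZNF302 and ZNF30, with ZNF181 and ZNF599 between them, thus moved in opposite directions in InsF, InsG and InsH.

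ZNF260 had 28.7 and 24.8 CPM in InsE, 29.7 and 23.8 in InsF, 31.3 and 26.1 in InsG, 28.1 and 24.1 in InsH, and 35.5 and 35.7 in the control. All line libraries lay below both control libraries. It fell by 0.4 ± 0.13 in InsF (edgeR adjusted p = 0.0492) and by 0.44 ± 0.13 in InsH (adjusted p = 0.0421), and the value in InsG, -0.29 ± 0.13, did not pass (adjusted p = 0.136). Within replicate 1 the log2 difference was -0.25 in InsF and -0.33 in InsH, and within replicate 2 it was -0.58 and -0.57. The InsF call was lost without either control library, either InsE library or InsF replicate 2 (adjusted p = 0.0503 to 0.227), and the InsH call without either control or either InsH library (0.0633 to 0.177). DESeq2 did not call it in InsF (adjusted p = 0.0638). With library sizes alone edgeR called it in neither (0.0824 in InsF and 0.0708 in InsH), nor did limma on log2(TPM + 1) (0.251 and 0.143).

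ZNF146 lay near the control in InsE and below it in the other lines. It had 209 and 194 CPM in InsE, 161 and 147 in InsF, 184 and 163 in InsG, 167 and 155 in InsH, and 192 and 193 in the control. Both InsE libraries lay above both control libraries and all libraries of the other lines lay below them. It fell by 0.32 ± 0.08 in InsF (edgeR adjusted p = 0.0142) and by 0.26 ± 0.08 in InsH (adjusted p = 0.0415), was -0.15 ± 0.08 in InsG (adjusted p = 0.203), and differed by 0.07 ± 0.08 in InsE. InsE exceeded the mean of InsF, InsG and InsH by 0.31 ± 0.06 (adjusted p = 0.00565), a call that was lost without InsE replicate 1 (0.25, adjusted p = 0.0806). The InsF call was lost without either control library or InsF replicate 2 (0.0886 to 0.093), and the InsH call without either control or either InsH library (0.0683 to 0.181) and with library sizes alone (0.1). On log2(TPM + 1) limma called neither (adjusted p = 0.308 in InsF and 0.412 in InsH), nor the difference of InsE from the other lines (0.208). ZNF565 overlaps ZNF146 on the opposite strand with 583 counts against 40186 for ZNF146, so reads of ZNF146 cannot be told from those of ZNF565 without a known strand setting.

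In InsF alone ZNF850 and ZFP14 also passed the test, which does not show that InsF differs from the other lines. ZNF850 had 4.51 and 4.23 CPM in InsE, 3.28 and 2.35 in InsF, 3.88 and 2.68 in InsG, 3.49 and 2.57 in InsH, and 5.4 and 4.26 in the control. It fell by 0.76 ± 0.24 in InsF (edgeR adjusted p = 0.0471), with -0.14 in InsE, -0.51 in InsG (adjusted p = 0.154) and -0.65 in InsH (adjusted p = 0.0918). Its call was lost without either control, either InsE or either InsF library (adjusted p = 0.0573 to 0.286), with DESeq2 (0.169), with library sizes alone (0.0611) and with limma on log2(TPM + 1) (0.457). InsE differed from the mean of the other lines by 0.5 ± 0.2 (edgeR adjusted p = 0.0977), which passed with the replicate number as a block (adjusted p = 0.0158).

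ZFP14 had 5.69 and 5.5 CPM in InsE, 4.48 and 3.9 in InsF, 5.25 and 4.83 in InsG, 4.91 and 4.22 in InsH, and 5.4 and 6.36 in the control. Its InsF libraries were below both control libraries, its InsE libraries between them. It fell by 0.47 ± 0.15 in InsF (edgeR adjusted p = 0.0483), a call lost without any 1 of the 10 libraries (adjusted p = 0.0528 to 0.263). It was also lost with DESeq2 (adjusted p = 0.321), library sizes alone (0.0736), no expression filter (0.0909) and limma on log2(TPM + 1) (0.614). ZNF792, at -0.66 ± 0.22 in InsF, missed the threshold (edgeR adjusted p = 0.0538).

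**Figure D4:**
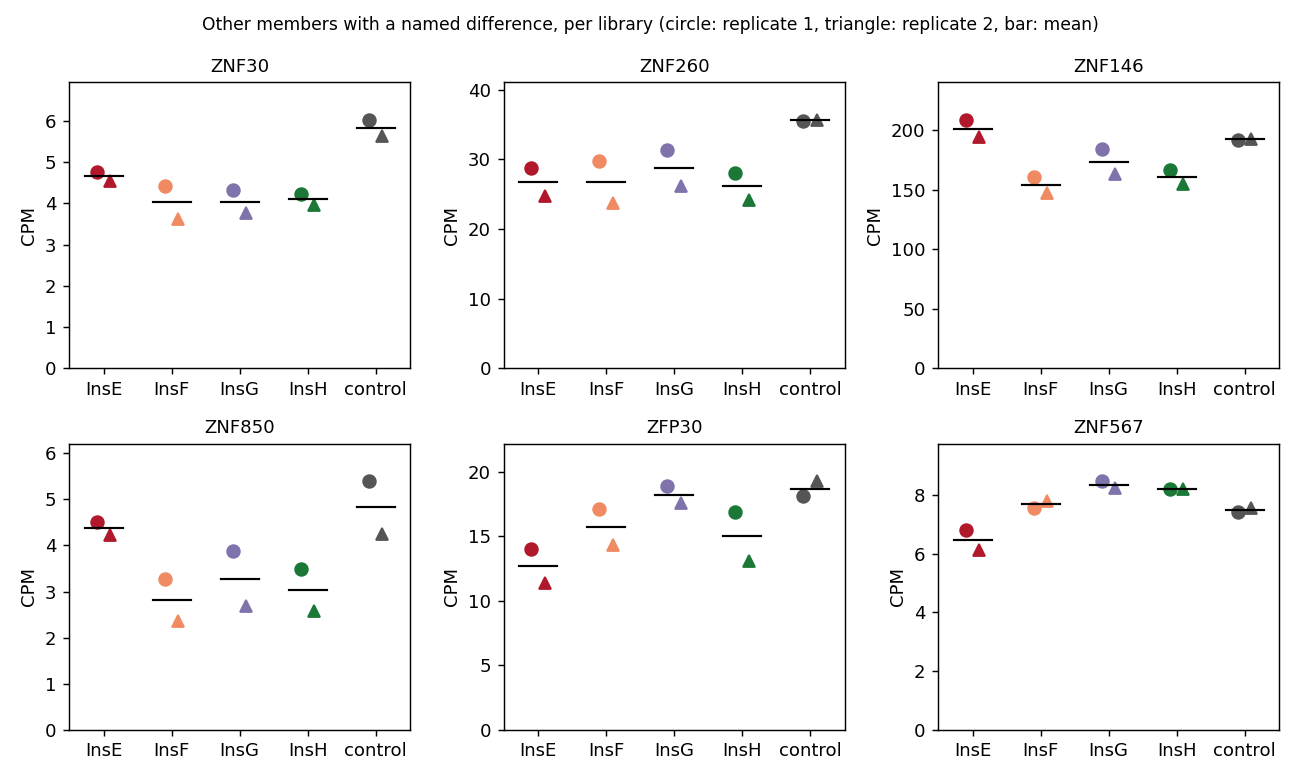
Level in CPM on the vertical axis of ZNF30, ZNF260, ZNF146, ZNF850, ZFP30 and ZNF567 for each group, with a circle for replicate 1, a triangle for replicate 2 and a bar for the mean. ZNF30 and ZNF260 lie below the control in all 8 line libraries, and ZNF146 is at 209 and 194 CPM in InsE but at 147 to 184 CPM in the other lines.

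ZFP30 and ZNF567 had their lowest values in InsE. ZFP30 had 14.0 and 11.4 CPM in InsE, 17.1 and 14.3 in InsF, 18.9 and 17.6 in InsG, 16.9 and 13.1 in InsH, and 18.1 and 19.3 in the control. It differed from the control by -0.52 ± 0.14 in InsE and, with no call, by -0.24, -0.02 and -0.3 in InsF, InsG and InsH. The difference of InsE from the mean of the other lines, -0.34 ± 0.12, missed the threshold (edgeR adjusted p = 0.0687) but passed it with the replicate number as a block (adjusted p = 0.00716). The human ZFP30 gene is counterpart to a mouse regulator of neutrophil chemokines in the lung.

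ZNF567 had 6.81 and 6.13 CPM in InsE, 7.55 and 7.8 in InsF, 8.47 and 8.23 in InsG, 8.19 and 8.2 in InsH, and 7.41 and 7.54 in the control. Both InsE libraries were below all the others. InsE differed from the mean of InsF, InsG and InsH by -0.3 ± 0.09 (log2; edgeR adjusted p = 0.0346), a call that was lost without any 1 of the 10 libraries (adjusted p = 0.0519 to 0.191) and in DESeq2 (adjusted p = 0.358), with no expression filter (0.138) and with limma on log2(TPM + 1) (0.12). ZNF567 and ZNF850 overlap on opposite strands, so part of their counts may be exchanged.

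Counted over the 24 tested members, ZNF529 included, the share called in InsF, InsG and InsH lay on both sides of that of all genes. In InsE against control 3 members were called, 2 higher (ZNF529 and ZNF302; all genes 10.8%) and 1 lower (ZFP30; all genes 12.4%), beside 23.2% of the 15554 genes tested, and nothing is read from this count, since the comparison chose the members. In InsF 7 were called, or 29.2%, beside 22.3% of all genes, with 2 higher (all genes 10.9%) and 5 lower (all genes 11.3%). In InsG 3 were called, or 12.5%, beside 20.3%, with 2 higher (all genes 9.86%) and 1 lower (all genes 10.5%). In InsH 5 were called, or 20.8%, beside 18.4%, with 2 higher (all genes 8.95%) and 3 lower (all genes 9.46%). ZNF529 is among the higher members in each of these counts, although it was chosen for its level, and so raises the members' shares. In InsH the members' share lies above that of all genes only with ZNF529 counted. The members called there besides it were ZNF146, ZNF260, ZNF30 and ZNF302. With library sizes alone the members' count was 4 in InsF, beside 22.8% of all genes, and 2 in InsH, beside 19.5%. With DESeq2 it was 3 in InsF, beside 14.8%, and 3 in InsH, beside 13.0%. No direction relative to all genes is read from these shares.

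Without either control library, no member was called in any line except ZNF529. Its level chose the set, so its passing is no support. Fewer members were also called where a library of the line compared was left out. All these fits leave 1 library in a group, and a smaller share of all genes was called in them as well. The losses are therefore not read as a result about the members. In InsF fewer members were also called without either InsE library, where the share of all genes was nearly unchanged.

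The median log2 difference of the 24 members was 0.02 for InsE, 0.01 for InsF, -0.09 for InsG and -0.02 for InsH, beside 0.01 over all genes in each line. Libraries of line and control did not overlap in 13 members in InsE, 14 in InsF, and 15 each in InsG and InsH, where 65.3%, 65.3%, 64.6% and 63.1% of all tested genes did not overlap. In 15 members the difference stayed within 0.5 on the log2 scale in all 4 lines.

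The 16 tested members that passed in no line ranged from -0.83 (ZNF607 in InsE) to 0.82 (ZNF599 in InsE). The widest of them were low genes with large errors. ZNF607 had -0.83 ± 0.33 in InsE and -0.54 ± 0.32 in InsH, ZNF599 had 0.82 ± 0.56 in InsE and 0.69 ± 0.56 in InsH, and ZNF573 had 0.65 ± 0.47 in InsF and 0.78 ± 0.47 in InsH. ZNF420, whose errors were among the smallest of this group, ranged from -0.23 ± 0.1 in InsE to 0.05 ± 0.1 in InsG.

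ZNF565 ranged from -0.07 in InsG to 0.41 in InsH, ZNF540 from 0.2 in InsH to 0.47 in InsG, and ZNF571 from 0.02 in InsH to 0.28 in InsG. ZNF383 ranged from 0.03 in InsF to 0.32 in InsE and ZNF585A from -0.16 in InsH to 0.21 in InsG. ZNF181, ZNF527 and ZNF569 stayed between -0.14 and 0.12 in all lines. Overlaps on opposite strands join ZNF420 with ZNF585A, ZNF383 with ZNF585B, ZNF569 with ZNF570, and ZNF540 with ZNF571 and ZFP30, so these values also hold only as far as the counting kept the strands apart.

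**Figure D5:**
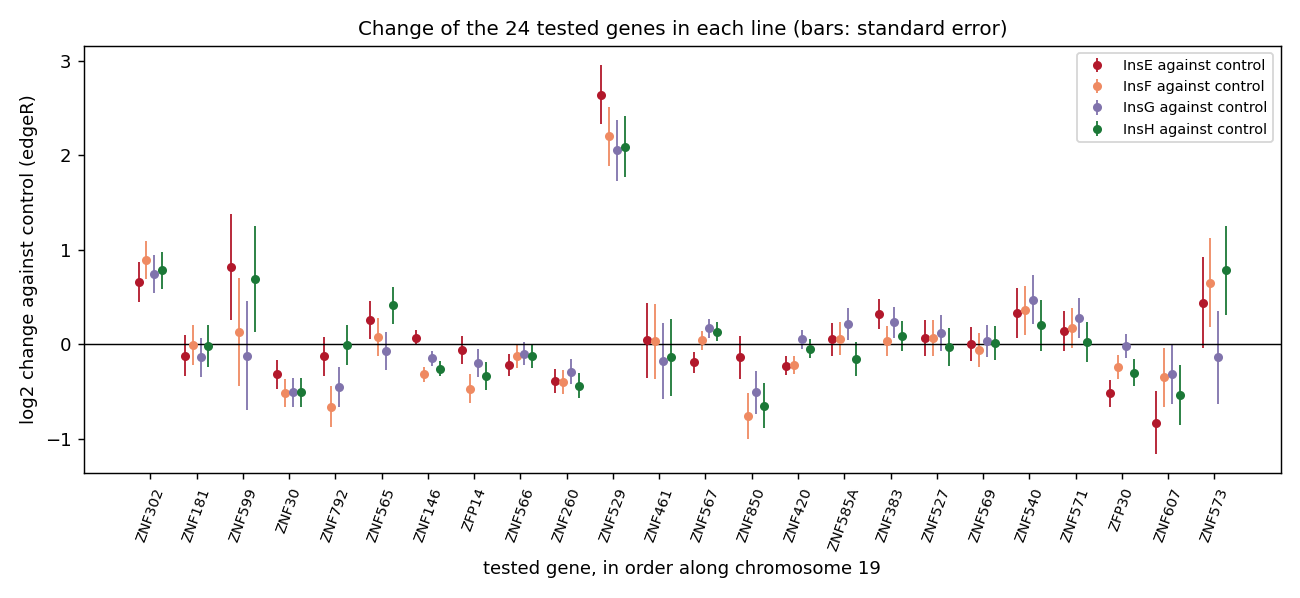
Log2 difference from the control, with its standard error as a bar, for the 24 tested members in order along chromosome 19 and for each line in its own colour. ZNF529 stands at 2.05 to 2.64 in the 4 lines, ZNF302 at 0.66 to 0.89, and the others lie between -0.83 and 0.82.

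Between lines, few members passed the test. Among InsF, InsG and InsH, 0 of the 24 members passed edgeR's test, beside 14 of all 15554 genes (0.09%), and 1 member, ZNF792, had an unadjusted p under 0.05 (0.0397), beside 934 genes (6.0%). DESeq2 and limma also called 0 members among these lines. Between InsE and the mean of the other 3 lines, 2 members were called, ZNF146 higher (all genes 11.4%) and ZNF567 lower (all genes 12.8%), beside 24.2% of all genes in either direction. With the replicate number as a block, 4 were called, with ZFP30 and ZNF850 added, beside 38.2% of all genes. Libraries were left out only in the fit with no block. There the ZNF146 call was lost without InsE replicate 1, and the ZNF567 call without any 1 of the 10 libraries.

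Other zinc finger genes of chromosome 19 numbered 216, of which 160 were tested. Those called higher and lower numbered 10 and 9 for InsE and 19 and 6 for InsF. In InsG they were 15 and 7, and in InsH 15 and 10. Called in either direction were 11.9%, 15.6%, 13.8% and 15.6% of those tested, beside 23.2%, 22.3%, 20.3% and 18.4% of all genes. ZNF544, outside the family described here, rose by 3.11 ± 0.53 in InsF (edgeR adjusted p = 0.0028), by 3.44 ± 0.52 in InsG (adjusted p = 0.00182) and by 3.62 ± 0.52 in InsH (adjusted p = 0.00138), calls not shared by limma on log2(TPM + 1) (adjusted p = 0.173, 0.111 and 0.236). ZNF529 was thus not the only zinc finger gene of the chromosome that was low in the control and higher in the lines.

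The 236 tested zinc finger genes of other chromosomes were called lower more often than higher, with 15 higher and 43 lower for InsE, 13 and 57 for InsF, 8 and 41 for InsG, and 12 and 38 for InsH. Their median log2 difference was -0.09, -0.14, -0.09 and -0.14, against 0.03, 0.04, 0.04 and 0.04 for the other zinc finger genes of chromosome 19. The difference between these lists was not tested. Of the 236 genes, 24.6%, 29.7%, 20.8% and 21.2% were called in either direction, beside 23.2%, 22.3%, 20.3% and 18.4% of all genes. Of all genes, 10.8%, 10.9%, 9.86% and 8.95% were called higher and 12.4%, 11.3%, 10.5% and 9.46% lower.

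Between the outermost members lie 35 tested protein-coding genes that are not members. Of these, 4 were called in each of InsE, InsF and InsG and 2 in InsH. Their shares were 11.4%, 11.4%, 11.4% and 5.71%, beside 23.2%, 22.3%, 20.3% and 18.4% of all genes. HKR1, itself a zinc finger gene whose symbol kept it off the list, rose by 0.48 ± 0.12 in InsF (edgeR adjusted p = 0.0212) and by 0.5 ± 0.12 in InsG (adjusted p = 0.0192). Its calls were lost without either control library or InsF replicate 1 or 2 (0.0588 to 0.18) in InsF, without either control library or InsG replicate 1 (0.0599 to 0.18) in InsG, and in DESeq2 (adjusted p = 0.212 and 0.196). KMT2B, a histone methyltransferase gene, fell by 0.42 in InsF, 0.55 in InsG and 0.48 in InsH (edgeR adjusted p = 0.0495, 0.019 and 0.0336), calls lost without either control library or replicate 1 of the line (0.0937 to 0.267). None of the genes called in InsF, InsG or InsH moved by as much as ZNF529 in the same line. In InsE the low gene NPHS1 differed from the control by -2.33 ± 0.59, at 0.138 CPM in InsE and 0.541 CPM in the control.

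A list of 22 genes for the corepressors of KRAB zinc finger proteins and for chromatin factors such as UHRF1, ATRX and DAXX was also examined, and all 22 were tested. It includes ZNF274, itself a zinc finger gene of chromosome 19 and so also counted among the other zinc finger genes of that chromosome. Those called higher and lower numbered 1 and 3 for InsE and 0 and 5 for InsF. In InsG they were 0 and 6, and in InsH 0 and 5. Called in either direction were 18.2%, 22.7%, 27.3% and 22.7%, beside 23.2%, 22.3%, 20.3% and 18.4% of all genes. Of all genes, 12.4%, 11.3%, 10.5% and 9.46% were called lower. The 1 called higher was MPHOSPH8, at 0.55 ± 0.05 in InsE. TRIM28, the common partner of KRAB domains, averaged 244 TPM in InsE, 277 in InsF, 278 in InsG, 269 in InsH and 303 in the control. UHRF1, which guides DNA methylation after replication, fell by 0.36 ± 0.06 in InsF (edgeR adjusted p = 0.00279), by 0.43 ± 0.06 in InsG (adjusted p = 0.00134) and by 0.39 ± 0.06 in InsH (adjusted p = 0.00249), and no single library decided these calls. ATF7IP, a partner of SETDB1, fell by 0.38 ± 0.06 in InsF (edgeR adjusted p = 0.00218), by 0.28 ± 0.06 in InsG (adjusted p = 0.0108) and by 0.43 ± 0.06 in InsH (adjusted p = 0.00143). The InsG call was lost without either control library or InsG replicate 2 (0.0532 to 0.0845), and limma on log2(TPM + 1) called none of the 3 (0.571, 0.775 and 0.584).

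Promoter windows were matched for 30 of the 34 genes, 47 windows in all, against 35116 windows of all RefSeq genes. Searched on both strands, the NRF1 motif (GCGC, any base, TGCGC) was in 10 member windows (21.3%) and in 5.78% of all windows, and the ETS motif CCGGAAG in 11 (23.4%) and 10.3%. The GC box GGGCGG was in 44.7% and 45.0%, and CCAAT in 21.3% and 34.6%. AAGATGGCG, the core of the YY1 motif, was in 4.26% and 1.75%, and TGACGTCA, the cyclic AMP response element, in 0 of 47 and 1.85%. A CTCF-type motif (CC, any base, C, any base, AG, any 2 bases, GGC) was in 1 member window, that of ZNF461, or 2.13%, beside 3.36% of all windows. None of these motifs contains another, and a match is a description of letters only.

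The median window held 23 CpG dinucleotides in members and 14 in all genes. It held 24 in the 31 windows of tested members and 19 in the 16 windows of members too low to test, with ranges of 9 to 35 and 9 to 37 that overlap. ZFP82, with 1 count in all, and ZNF382, with 3, both have an NRF1 match and a CpG-rich window, as ZNF529 has. Several windows belong to the same gene or to a divergent pair and share bases, so these counts are not of independent sequences.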

How the data were processed

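RNA sequencing of GIST-T1 cells gave 10 libraries, 2 in each of 5 groups taken from the labels. The authors deposited RSEM's expected counts per gene, not normalised between libraries, and TPM values per gene, corrected for length, made with STAR 2.5.3 and RSEM 1.3.2 on hg38 per the submitters' processing notes, which also name DESeq2 1.38.3. Neither annotation release nor strand setting is given in the sources used here. A deposited table of the whole series, with 10 value columns whose names did not match the labels, was not used.

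The members and lists were chosen with earlier results of these data known. Expected counts were rounded and tested with edgeR 4.0.16 in R 4.3.3 (robust quasi-likelihood, TMM, expression filter with a minimum count of 10), which left 15554 genes, 24 of them members. All 10 libraries were fitted together with 5 residual degrees of freedom, by two-sided tests at a threshold of 0.05 after Benjamini-Hochberg adjustment over the 15554 genes. Differences are log2 values against the control with SE, levels CPM or TPM. CPM was computed here after TMM scaling, and TPM was taken as deposited. TMM factors were 1.003 to 1.012 in the lines and 0.969 and 0.971 in the control. Positions came from GENCODE release 29, which matched 58261 of 58381 rows, and promoter sequences from RefSeq (GRCh38.p14). On simulated counts for InsE against control over 15554 genes, edgeR recovered 61.2% of genes changed 1.5-fold, 76.1% changed 2-fold and 92.4% changed 4-fold, with 14 false calls.

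Members named with full values were ZNF529, up to 4 called risers and 4 called fallers per line, and up to 6 called between InsE and the other lines; ZFP30 in the other lines, ZNF146 in InsF and ZNF792 were named beyond that rule, after their values were seen. Alternatives were other scalings, no filter, DESeq2 1.42.0, limma 3.58.1 on log2(TPM + 1) and log2(TPM + 0.1), a replicate block (deviations of replicate 2 from replicate 1 correlated at 0.39 to 0.46 between lines and at 0 to 0.04 with the control, so the numbers pair the lines only), each library left out, and both control libraries merged. Intervals and limits for counts of 0 cover counting error only. A blood marker and the sum that includes it are not reported here.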

Additional observations from a re-analysis of the deposited data

Results flagged for a closer look

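ZNF146 and ZNF567 differed between InsE and the mean of InsF, InsG and InsH by edgeR's test of that difference. The log2 difference was 0.31 for ZNF146 (edgeR adjusted p = 0.00565), with both InsE libraries above all 6 libraries of the other lines, and -0.3 for ZNF567 (edgeR adjusted p = 0.0346), with both InsE libraries below all 6. The ZNF146 call was lost without InsE replicate 1 (0.25, adjusted p = 0.0806) and on log2(TPM + 1) with limma (0.18, adjusted p = 0.208). The ZNF567 call was lost without any 1 of the 10 libraries (adjusted p = 0.0519 to 0.191). The 2 InsE libraries differ in depth, at 31.0 and 9.4 M expected counts, and the part of depth in these values was not tested.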

How the results depend on the processing

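Of the 24 tested members, the main fit called 7 for InsF, 3 for InsG, 5 for InsH and 2 between InsE and the mean of the other lines. It called 0 among InsF, InsG and InsH, as did every alternative. For InsE against control it called 3, and nothing is read from that count, since the comparison chose the members. ZNF529, chosen for its level, is among the members the main fit called against control in each line. With library sizes alone the member counts were 4 in InsF and 2 in InsH, beside 22.8% and 19.5% of all genes. With DESeq2 they were 3 in InsF, 1 in InsG, 3 in InsH and 1 between InsE and the other lines. DESeq2 called 14.8%, 13.7%, 13.0% and 15.9% of all genes in that order. With limma they were 1 in InsF, 0 in InsG and 1 in InsH on log2(TPM + 1), and 2, 1 and 2 on log2(TPM + 0.1). Of all genes, limma called 10.7%, 8.54% and 8.79% on the first scale and 10.7%, 8.57% and 8.84% on the second. Leaving out a control library or a library of the line compared gave fewer member calls in each line against control. The share of all genes called was smaller in those fits too. Merging both control libraries into 1, an alternative chosen after seeing the data, also gave fewer member calls and a smaller share of all genes. What remained was ZNF529, whose level chose the set, against control in each line, and ZNF146 between InsE and the other lines. No called value of a named gene changed sign. The cause of these shifts was not tested.

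The replicate numbers paired the libraries of the 4 lines with each other but not with those of the control. With the replicate block, member counts rose against control and between InsE and the other lines. The share of all genes called rose there too. The block called 8 members for InsF, 6 for InsG and 7 for InsH, beside 37.8%, 37.1% and 34.2% of all genes. Between InsE and the other lines it called 4, beside 38.2%. For InsE against control it also called 4, beside 38.2%, and nothing is read from that count. Depth limits the low members, with 0.0134 CPM the limit for a gene at 0 in all libraries.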
